A study of Mus musculus with 12 samples.

Results

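The genes described here encode cytokines of the interleukin-6 (IL-6) family, interleukin-10 (IL-10) and the receptor chains through which these cytokines signal. They were chosen by gene symbol from a list of 8 genes, of which 7 had a row among the 12850 genes of the deposited table: the ligand genes *Il6*, *Lif* and *Osm* and the receptor genes *Il6ra*, *Il6st*, *Il10ra* and *Il10rb*. All 7 were among the 11885 genes tested. The listed ligand gene *Il10* was not analysed here.

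Poly(A) RNA was sequenced from peritoneal exudate cells (PECs), the cells that gather in the peritoneal cavity after injection of thioglycollate medium, of C57BL/6 mice. The mice were wild type (WT) or carried the knock-in allele *Zc3h12a* S513A/S513A (S513A) in every cell. *Zc3h12a* encodes Regnase-1, a ribonuclease that degrades cytokine mRNAs, and in S513A mice 1 of its serines is replaced by alanine. The cells were cultured and left without LPS (0 hr) or stimulated with LPS, a component of the bacterial cell wall that Toll-like receptor signaling detects, at 100 ng/ml for 4 or 8 hr. Each of the 6 groups had 2 libraries, 12 in all, and the labels do not say whether these came from separate mice, so p values measure the spread between these libraries, which may be technical. A gene-level count cannot show the codon change, and *Zc3h12a* itself had over both genotypes a log2 CPM of 4.99 to 5.39 before LPS, then 7.87 to 8.11 at 4 hr, then 6.80 to 7.11 at 8 hr.

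IL-6, leukemia inhibitory factor (LIF, from *Lif*) and oncostatin M (from *Osm*) all signal through the shared receptor chain gp130, the product of *Il6st*. IL-6 first binds the IL-6 receptor α chain, encoded by *Il6ra*, which can also be cut from the cell surface and then lets IL-6 act on cells that express gp130 alone. LIF and oncostatin M pair gp130 with the LIF receptor or the oncostatin M receptor. IL-10, which restrains macrophage activation, binds a receptor of the ligand-binding chain IL-10Rα (*Il10ra*) and the chain IL-10Rβ (*Il10rb*), which is shared with other cytokines of the IL-10 family. Both kinds of receptor act through Janus kinases and STAT3.

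The mRNAs of the 3 ligands carry copies of ATTTA, the core of AU-rich elements that many RNA-binding proteins recognize, in the 3′ untranslated region. *Il6* (Entrez 16193) spans 30013114 to 30019975 of chromosome 5 on the plus strand (GRCm38), and its 3′ untranslated region of 427 bases held 6 copies, or 14.1 per kilobase. Only 0.293% of the 10936 tested genes with an annotated 3′ untranslated region had a density at least as high, against a median over those genes of 1.34 per kilobase. *Osm* (18413) lies on chromosome 11 from 4236785 to 4241026, and its 1017 bases held 6 copies, or 5.90 per kilobase, a density that 4.39% of genes reached. *Lif* (16878) lies on the same strand of chromosome 11 from 4257568 to 4272514, with 16541 bases between the end of *Osm* and its start. Its 3180 bases held 7 copies, or 2.20 per kilobase, which 31.9% of genes reached. The mRNA of the receptor gene *Il10ra* was, like those of the 3 ligands, highest at 4 hr, but only sequences of the ligands are shown. These are the 30 bases with 2 or 3 copies from each ligand's 3′ untranslated region, with ATTTA in capitals and from 5′ to 3′ on the plus strand of GRCm38.
*Il6*, chr5:30019684-30019713: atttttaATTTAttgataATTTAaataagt
*Osm*, chr11:4240945-4240974: ttttatATTTAtaaggcctATTTAtaatgt
*Lif*, chr11:4272414-4272443: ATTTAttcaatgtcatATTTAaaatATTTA
Of the receptor mRNAs, *Il10rb* held 4 copies in 711 bases, or 5.63 per kilobase, close to the density of *Osm* and above that of *Lif*, and 4.90% of genes reached it. *Il10ra* held 3 copies in 1693 bases, *Il6st* 9 in 5641 and *Il6ra* 4 in 7102, densities that 40.3%, 44.0% and 66.3% of genes reached. The longer AU-rich nonamer TTATTTATT, present in 7.64% of these genes, occurred 3 times in *Il10ra* and 2 times in *Lif* and in none of the other members. At least 3 copies of it were present in 0.549% of these genes. ATTTA was present in 69.5% of all these genes, so a match is a description of the sequence and not a binding site, and the densities of the ligands and the receptors overlapped.

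Promoter sequences (RefSeq, GRCm38.p6, from 250 bases before to 50 bases after the start of transcription) were found for 4 of the 8 listed genes, *Il6*, *Lif*, *Il6ra* and *Il6st*. Those of *Il6* and *Lif* are shown because these ligand genes had the largest changes of the 7 with LPS. Capitals mark matches on either strand to AP-1 (TGANTCA), the CRE core (TGACGT), C/EBP (TTGNGCAA) and NF-kappaB motifs. A search for the STAT motif (TTCNNNGAA) was also made. The TATA box letters TATAAA were searched as well.
*Il6*, chr5:30012864-30013163, plus strand: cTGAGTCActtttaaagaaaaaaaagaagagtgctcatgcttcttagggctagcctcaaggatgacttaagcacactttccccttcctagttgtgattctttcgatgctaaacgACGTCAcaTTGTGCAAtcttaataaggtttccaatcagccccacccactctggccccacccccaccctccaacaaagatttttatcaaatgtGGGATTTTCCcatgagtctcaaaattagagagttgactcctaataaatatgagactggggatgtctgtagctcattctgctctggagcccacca
*Lif*, chr11:4257318-4257617, plus strand: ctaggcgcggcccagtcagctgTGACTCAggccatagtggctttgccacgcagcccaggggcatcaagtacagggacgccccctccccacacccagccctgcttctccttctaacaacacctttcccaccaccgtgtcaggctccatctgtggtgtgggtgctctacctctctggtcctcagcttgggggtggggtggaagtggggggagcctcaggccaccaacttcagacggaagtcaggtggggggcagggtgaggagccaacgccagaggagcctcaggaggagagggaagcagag
Counted from the start of transcription, the *Il6* promoter held an AP-1 match at -249, a CRE core match at -136, a C/EBP match at -128 and an NF-kappaB match at -44, none of which overlapped. The *Lif* promoter held an AP-1 match at -228, and no letters of the 6 motifs were found in those of *Il6ra* and *Il6st*. Of all 32851 promoters, 7.81% held the AP-1 motif, 7.51% the CRE core, 2.94% the C/EBP motif, 4.51% the NF-kappaB motif, 8.3% the STAT motif and 13.6% the TATA motif. The promoters of the 2 receptor genes were richer in CpG dinucleotides, with 25 in *Il6ra* and 33 in *Il6st* against 3 in *Il6* and 7 in *Lif*.

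The 12 libraries had between 9525979 and 12439960 reads on the listed genes, with a median of 11137241. The floor was set at 3 reads, which is a log2 CPM between -2.04 and -1.30 depending on depth. CPM scales the counts of each library to the same total, and a difference of 1 in log2 CPM is a change by a factor of 2. The 2 libraries of a group differed with an SD of 0.162 to 0.401 in log2 over well-expressed genes, most between the WT libraries at 4 hr. All 7 macrophage markers had a row and summed to between 16650 and 27790 CPM, whereas the T cell marker genes *Cd3d*, *Cd3e* and *Cd3g* and the neutrophil genes *S100a9*, *Ly6g*, *Retnlg* and *Cxcr2* had none. The filter behind the rows was not given, so a missing row does not show that a gene was not expressed. The sum of the B cell markers (4 of 5 with a row) ranged from 3.44 to 8.87 CPM, of the mast cell markers (4 of 5) from 1.76 to 3.84 CPM, and of the mesothelial markers (3 of 4) from 0.487 to 2.27 CPM. The only T cell marker with a row, *Cd4*, lay between 0.143 and 1.13 CPM, and the only neutrophil marker with one, *S100a8*, between 20.2 and 106.4 CPM. Some marker levels moved with time: the eosinophil markers (2 of 4 with a row) summed to 15.3 to 18.5 CPM at 0 hr, 8.02 to 10.0 CPM at 4 hr and 3.62 to 4.58 CPM at 8 hr, and the 2 resident macrophage markers, which summed to 9.30 to 15.8 CPM at 0 hr and 19.8 to 40.5 CPM at 8 hr, went opposite ways. *Timd4* was at 6.63 to 11.2 CPM at 0 hr and 18.8 to 38.7 CPM at 8 hr, whereas *Gata6* was at 2.47 to 5.12 CPM at 0 hr and 0.617 to 1.76 CPM at 8 hr. In bulk RNA, fewer cells of a type and less RNA per cell cannot be told apart, and the part of these markers in the changes below was not tested.

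The first question was how the mRNAs of the ligands and receptors changed between 0, 4 and 8 hr of LPS. Averaged over the genotypes, all 3 ligand mRNAs and *Il10ra* were higher at 4 hr than at 0 hr, *Il6ra* and *Il6st* were lower, and *Il10rb* did not pass the test. In limma with Benjamini-Hochberg adjustment over all genes tested, 6 of the 7 genes passed an adjusted p of 0.05 at 4 hr, 4 higher and 2 lower, against 55.8% of those tested. At 8 hr against 0 hr, 5 of 7 passed (3 higher, 2 lower; 46.1% of all genes), and between 4 and 8 hr, 5 of 7 passed (1 higher, 4 lower; 25.6% of all genes). Over the 7 genes the log2 fold changes had a median of 0.82 at 4 hr and 0.33 at 8 hr against 0 hr, beside medians over all genes of 0.017 and -0.00070. The 3 comparisons share libraries, so their counts are not independent of each other. Genes entered the test if they reached 1 CPM in at least 2 libraries. *Il6* did so only with LPS and *Lif* only at 4 hr. Both thus entered through groups where they were high, and their part in these counts is a description.

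**Figure D1:**
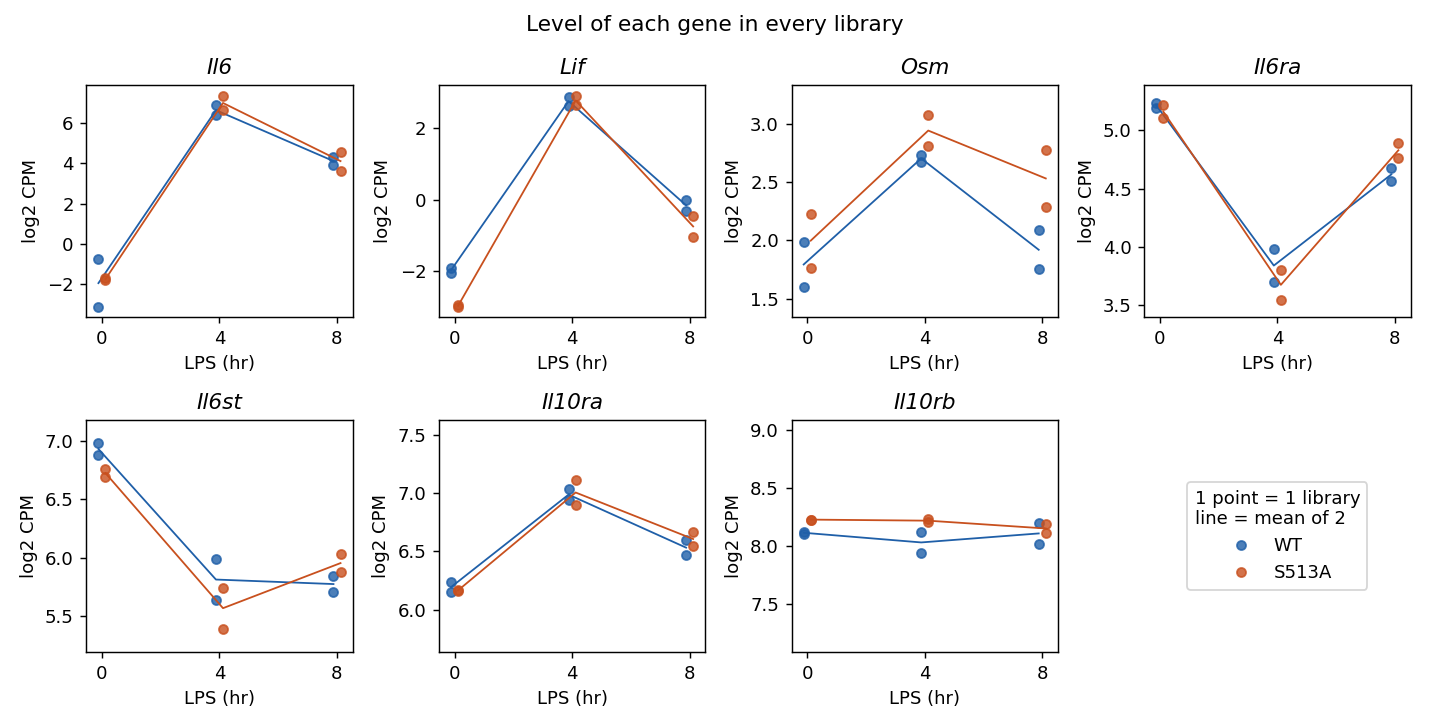
Each panel plots the log2 CPM (vertical axis, its own range per gene) of 1 gene against hours of LPS, with 1 point per library, WT in blue and S513A in orange, and lines through the means of 2 libraries. *Il6* and *Lif* rose to a peak at 4 hr in all 4 libraries, *Il6ra* and *Il6st* fell, and *Il10rb* stayed between 7.95 and 8.23.

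*Il6*, the gene of a cytokine that drives fever and the acute phase response, had the largest change of the 7. At 0 hr its log2 CPM was -0.76 and -3.12 in the WT libraries (8 reads and 1 read) and -1.70 and -1.77 in the S513A libraries (3 reads each). At 4 hr it was 6.90 and 6.38 in WT and 6.63 and 7.37 in S513A PECs. At 8 hr it was 3.94 and 4.29 in WT and 3.64 and 4.59 in S513A PECs. All libraries at 4 hr thus lay above all those at 8 hr, and these above all those at 0 hr, where 3 of the 4 libraries had no more than 3 reads.

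Because *Il6* was near the floor at 0 hr, its rise is given as a ratio of pooled reads per effective library size, with an exact 95% interval that covers counting error only. In WT PECs the 2264 reads at 4 hr against 9 at 0 hr gave a ratio of 309.3 (162.6 to 677.3), and in S513A PECs 2423 reads against 6 gave 501.6 (230.1 to 1368). At 8 hr the ratios were 52.9 (27.6 to 116.7) in WT and 68.3 (31.1 to 187.2) in S513A PECs. The intervals of the genotypes overlapped at both times.

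The fitted log2 fold change of *Il6* averaged over the genotypes was 8.65 (SE 0.43, adjusted p = 3.405e-08) at 4 hr and 5.95 (adjusted p = 8.289e-07) at 8 hr against 0 hr, which depends on the 0.5 read added to each count. *Il6* reached 1 CPM only in libraries with LPS, so the filter admitted it through groups where it was high. From 4 to 8 hr, where the reads are many, *Il6* fell by 2.70 on the log2 scale (adjusted p = 0.00117), and the mean CPM at 8 hr was 17.2% of that at 4 hr in WT and 13.9% in S513A PECs. Within WT PECs *Il6* fell by 2.52 on the log2 scale (adjusted p = 0.0207), and this call was lost when any 1 of the 4 WT libraries compared was left out (adjusted p = 0.0514 to 0.131). Within S513A PECs *Il6* fell by 2.88 on the log2 scale (adjusted p = 0.0102), and the call was lost without replicate 1 at 8 hr (adjusted p = 0.0750) or replicate 2 at 4 hr (adjusted p = 0.0878).

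*Lif*, the gene of a cytokine with roles in stem cell maintenance and implantation, was also highest at 4 hr. Its log2 CPM at 0 hr was -2.04 and -1.89 in WT (3 reads each) and -2.93 and -2.99 in S513A PECs (1 read each). At 4 hr it reached 2.88 and 2.63 in WT and 2.91 and 2.64 in S513A PECs, and at 8 hr it was -0.0045 and -0.30 in WT and -0.45 and -1.04 in S513A PECs. The 3 time points did not overlap in any pair, and no library at 8 hr had more than 10 reads.

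The pooled ratio of *Lif* at 4 hr against 0 hr was 30.7 (13.8 to 85.1, 150 reads against 6) in WT and 80.1 (21.7 to 668.7, 129 reads against 2) in S513A PECs. At 8 hr it was 3.90 (1.49 to 12.0) in WT and 6.72 (1.50 to 61.8) in S513A PECs. The fitted log2 fold change averaged over the genotypes was 5.23 (SE 0.26, adjusted p = 3.375e-08) at 4 hr and 2.01 (adjusted p = 8.378e-05) at 8 hr. From 4 to 8 hr *Lif* fell by 3.21 on the log2 scale (adjusted p = 1.915e-05), to 13.3% of the CPM at 4 hr in WT and 8.88% in S513A PECs. With a further pseudocount of 1 CPM the rise of *Lif* at 4 hr was 2.71 and at 8 hr 0.55 on the log2 scale, both still past the threshold (adjusted p = 9.972e-09 and 0.00297).

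*Osm*, whose product is made by activated macrophages and neutrophils, was already present without LPS and rose less. Its log2 CPM at 0 hr was 1.5998 and 1.99 in WT and 2.23 and 1.76 in S513A PECs. At 4 hr it was 2.67 and 2.74 in WT and 2.81 and 3.07 in S513A PECs, above every library at 0 hr. At 8 hr it was 1.75 and 2.09 in WT and 2.28 and 2.78 in S513A PECs, a range that overlapped both other times.

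At 4 hr *Osm* was higher by 0.93 on the log2 scale (SE 0.18, adjusted p = 0.000994), and in each genotype by 0.91 (WT, adjusted p = 0.0130) and 0.95 (S513A, adjusted p = 0.0103). At 8 hr the difference from 0 hr was 0.33 (95% confidence interval -0.057 to 0.72, adjusted p = 0.152), and under quantile normalization it was 0.46 and passed (adjusted p = 0.0432). Between 4 and 8 hr neither genotype passed, with -0.79 in WT (adjusted p = 0.0595) and -0.41 in S513A PECs (adjusted p = 0.256). The WT value passed under quantile normalization (adjusted p = 0.0394). The fall given next is the average over the genotypes. *Osm* fell by 0.60 on the log2 scale from 4 to 8 hr (adjusted p = 0.0288), a call lost without WT replicate 1 at 8 hr, WT replicate 2 at 4 hr, S513A replicate 1 at 8 hr or S513A replicate 2 at 4 hr (adjusted p = 0.0558 to 0.109). The rise at 4 hr within WT PECs was lost without WT replicate 1 at 0 hr (adjusted p = 0.106), and within S513A PECs without replicate 2 at 0 hr (adjusted p = 0.0923) or replicate 2 at 4 hr (adjusted p = 0.0693).

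**Figure D2:**
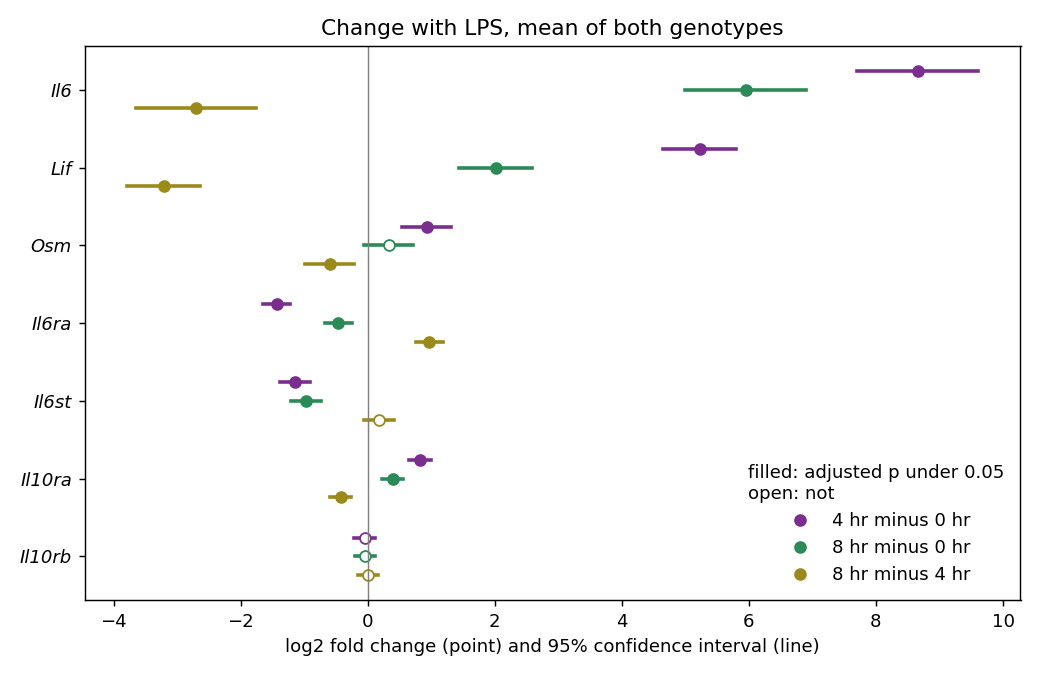
The horizontal axis is the log2 fold change with LPS averaged over both genotypes, with points for the estimates, lines for 95% confidence intervals and filled points for an adjusted p under 0.05. *Il6* and *Lif* have the largest rises at 4 hr, 8.65 and 5.23, *Il6ra* turns from -1.43 at 4 hr to a rise of 0.97 between 4 and 8 hr, and the 3 intervals of *Il10rb* include 0.

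The 2 receptor genes *Il6ra* and *Il6st* were lower with LPS averaged over the genotypes. *Il6ra* (Entrez gene 16194, chromosome 3 from 89869324 to 89913196, minus strand), the chain that binds IL-6, had a log2 CPM of 5.19 and 5.24 in WT and 5.11 and 5.22 in S513A PECs at 0 hr. At 4 hr it was 3.70 and 3.98 in WT and 3.80 and 3.55 in S513A PECs, and at 8 hr 4.68 and 4.57 in WT and 4.89 and 4.77 in S513A PECs. The order of the time points was 0 hr, 8 hr and 4 hr from high to low in both genotypes, with no overlap.

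At 4 hr *Il6ra* fell by 1.43 on the log2 scale (SE 0.097, adjusted p = 3.825e-07), to 38.7% of the CPM at 0 hr in WT and 35.7% in S513A PECs. From 4 to 8 hr it rose by 0.97 (SE 0.097, adjusted p = 6.816e-05), and at 8 hr its CPM was 66.3% of that at 0 hr in WT and 79.5% in S513A PECs. The remaining difference of -0.46 at 8 hr passed averaged over the genotypes (adjusted p = 0.00251) and in WT PECs (-0.59, adjusted p = 0.00668), where it was lost without WT replicate 2 at 8 hr (adjusted p = 0.0599). In S513A PECs the difference was -0.33 (adjusted p = 0.0770), and it passed under quantile normalization (-0.41, adjusted p = 0.0330) and without either WT library at 4 hr (adjusted p = 0.0444 and 0.0447). Exons of *Il6ra* overlap the antisense gene *Gm42809*. The authors mapped the reads as unstranded, so reads of the pair in that overlap cannot be told apart by strand. How the counting treated such reads was not given in the sources used here.

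*Il6st* (Entrez gene 16195, chromosome 13 from 112464070 to 112506860, plus strand), which encodes the shared chain gp130, fell at 4 hr and was still lower at 8 hr. Its log2 CPM was 6.88 and 6.98 in WT and 6.76 and 6.69 in S513A PECs at 0 hr, and 5.63 and 5.99 in WT and 5.74 and 5.39 in S513A PECs at 4 hr. At 8 hr it was 5.84 and 5.70 in WT and 6.03 and 5.87 in S513A PECs. All 8 libraries with LPS lay below the 4 without.

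At 4 hr *Il6st* fell by 1.14 on the log2 scale (SE 0.11, adjusted p = 4.895e-06) and was still lower at 8 hr by -0.97 (adjusted p = 2.456e-05). Relative to the CPM without LPS, the level in WT PECs was 46.3% at 4 hr and 44.7% at 8 hr, and in S513A PECs 45.0% and 58.6%. Between 4 and 8 hr the difference was 0.17 (95% confidence interval -0.060 to 0.41, adjusted p = 0.268), with -0.039 in WT (adjusted p = 0.883) and 0.39 in S513A PECs (adjusted p = 0.0927). The interaction term that compares these 2 values was 0.43 (-0.043 to 0.90, adjusted p = 0.280), and the one for *Il6ra*, which rose by 0.78 in WT (adjusted p = 0.00458, or 0.0514 without WT replicate 1 at 8 hr) and 1.16 in S513A PECs between 4 and 8 hr, was 0.37 (-0.055 to 0.80, adjusted p = 0.292). So neither change from 4 to 8 hr was shown to differ between the genotypes.

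The 2 chains of the IL-10 receptor behaved unlike each other. *Il10ra* (Entrez gene 16154, chromosome 9 from 45253837 to 45269149, minus strand), the ligand-binding chain, had a log2 CPM of 6.24 and 6.15 in WT and 6.17 and 6.16 in S513A PECs at 0 hr. It was 6.94 and 7.04 in WT and 7.12 and 6.90 in S513A PECs at 4 hr, and 6.47 and 6.60 in WT and 6.66 and 6.55 in S513A PECs at 8 hr. The 3 time points did not overlap.

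*Il10ra* rose by 0.82 on the log2 scale at 4 hr (SE 0.078, adjusted p = 5.729e-06), to 173.6% of the CPM at 0 hr in WT and 179.7% in S513A PECs. From 4 to 8 hr it fell by 0.43 (adjusted p = 0.00252), which left it higher than at 0 hr by 0.39 (adjusted p = 0.00181). The calls at 8 hr within a genotype rested on small differences of 0.34 in WT (adjusted p = 0.0344) and 0.44 in S513A PECs (adjusted p = 0.00904), and were lost without any 1 of the 4 WT libraries compared or either S513A library at 0 hr (for the WT comparison, adjusted p = 0.0566 to 0.209), and without either S513A library at 0 hr or replicate 1 at 8 hr (for S513A, adjusted p = 0.0504 to 0.0684). The falls from 4 to 8 hr within a genotype, of 0.46 in WT and 0.40 in S513A PECs on the log2 scale (adjusted p = 0.0206 and 0.0307), were lost in the WT comparison without WT replicate 1 or 2 at 8 hr or replicate 2 at 4 hr (adjusted p = 0.0731 to 0.156), and in S513A PECs without either library at 0 hr, either at 8 hr or replicate 1 at 4 hr (adjusted p = 0.0547 to 0.134).

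*Il10rb* (Entrez gene 16155, chromosome 16 from 91406157 to 91425834, plus strand) had the highest mean CPM per kilobase of annotated exon of the 7 genes and varied least. Its log2 CPM was 8.11 and 8.12 in WT and 8.23 and 8.23 in S513A PECs at 0 hr, 8.12 and 7.95 in WT and 8.23 and 8.21 in S513A PECs at 4 hr, and 8.02 and 8.20 in WT and 8.11 and 8.20 in S513A PECs at 8 hr. The groups overlapped in time, and the fold change averaged over the genotypes was -0.046 at 4 hr (95% confidence interval -0.21 to 0.12, adjusted p = 0.622) and -0.041 at 8 hr (-0.20 to 0.12, adjusted p = 0.682). Under quantile normalization *Il10rb* was called lower, by -0.43 at 4 hr (adjusted p = 0.000385) and -0.31 at 8 hr (adjusted p = 0.00418), so whether it fell depends on the scaling. The protein-coding gene *Gm21970* overlaps *Il10rb* on the same strand, and the annotation behind the counting was not given in the sources used here.

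The same comparisons were made within each genotype. In WT PECs 6 of the 7 genes passed at 4 hr (41.3% of all genes), 5 at 8 hr (34.3%) and 4 between 4 and 8 hr (14.2%). In S513A PECs 6 passed at 4 hr (43.2% of all genes), 4 at 8 hr (39.9%) and 4 between 4 and 8 hr (18.3%). Without WT replicate 2 at 8 hr the WT count at 8 hr was 3, the WT count between 4 and 8 hr was 1 without replicate 1 at 8 hr and 2 without replicate 2 at 4 hr or replicate 2 at 8 hr, and the S513A count between 4 and 8 hr was 2 without replicate 1 at 8 hr.

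To compare levels between genes, CPM was divided by a length in kilobases. That length was the union of the exons of all annotated transcripts of a gene, 2428 bases for *Il6* and 3498 for *Il10ra*. A single mRNA can be shorter than this union. The order and the overlaps below depend on this choice, and other lengths were not tried. At 0 hr the order of mean CPM per kilobase over the 4 libraries was *Il10rb* (75.8), *Il10ra* (20.7), *Il6st* (10.3), *Il6ra* (4.22), *Osm* (1.66), *Il6* (0.135) and *Lif* (0.0443), and of neighbours in that order, the ranges of *Il6* and *Lif* overlapped. At 4 hr *Il6* stood at 48.1 CPM per kilobase, between *Il10rb* (73.6) and *Il10ra* (36.6), and its range overlapped both. The other genes followed with *Il6st* at 4.70, *Osm* at 3.14, and *Il6ra* and *Lif*, whose ranges overlapped, at 1.57 each. At 8 hr the order was *Il10rb* (73.8), *Il10ra* (27.2), *Il6* (7.36), *Il6st* (5.26), *Il6ra* (3.07), *Osm* (2.13) and *Lif* (0.174), with overlap of *Il6* with *Il6st* and of *Il6ra* with *Osm*.

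**Figure D3:**
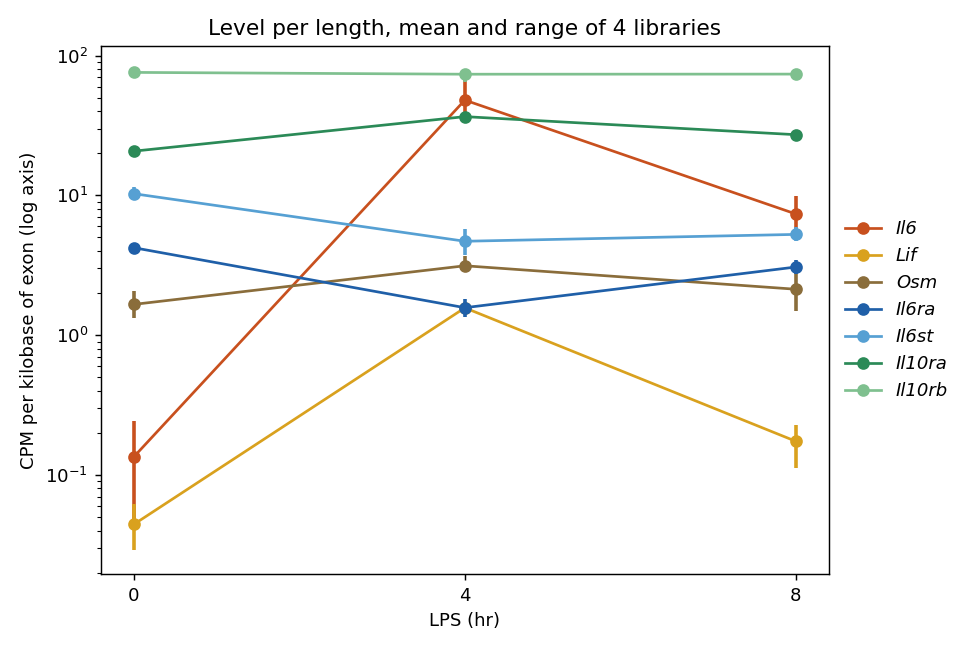
The vertical axis is CPM per kilobase of exon (union over all annotated transcripts) on a log scale, against hours of LPS, with points at the mean of 4 libraries (both genotypes) and bars over their range. *Il6* moves from 0.135 to 48.1 between 0 and 4 hr, where only the mean of *Il10rb* is higher and the ranges of *Il10rb* and *Il10ra* overlap its own.

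The genes most alike each ligand gene were found by Pearson's r of log2 CPM over the 12 libraries, as a description with no test: the libraries share 3 time points of 1 stimulus. For *Il6* they were *Cxcl1* (r = 0.993), a neutrophil chemoattractant, *Il1a* (0.992), a cytokine of the IL-1 family, and *Dhx40* (0.992). For *Lif* they were *Tardbp* (0.982), *Lbr* (0.981) and *Col27a1* (0.979), and for *Osm* they were *Lsm14a* (0.935), *Zc2hc1a* (0.928) and *Ppm1b* (0.919). Like *Il6*, *Cxcl1* and *Il1a* were highest at 4 hr, with log2 CPM of 9.07 to 9.49 and 9.76 to 10.4, and kept more at 8 hr than at 0 hr, whereas *Tardbp* moved only between 6.73 and 7.55. Among the 7 genes, *Il6* was at 0.909 with *Lif*, 0.938 with *Il10ra* and -0.955 with *Il6st*, and *Lif* was at 0.962 with *Il10ra* and -0.966 with *Il6ra*.

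The other genes of these pathways were taken as 8 lists, and each is described by how many of its tested genes passed averaged over the genotypes, to be read beside 55.8% of all genes at 4 hr and 46.1% at 8 hr. With median-ratio scaling or quantile normalization no called list gene changed sign at 4 hr, and each count below at 4 hr moved by at most 2 genes. Counts at 8 hr moved too. Under quantile normalization they were 2 higher and 2 lower for the gp130 family and 6 and 1 for the feedback inhibitors. They were 4 and 0 for the IL-10 response, 4 and 3 for the RNA-binding regulators and 7 and 2 for the transcription factors of *Il6* and *Il10*. Of the other ligands and receptors of the gp130 family, 6 of 12 were tested, and 4 rose and 1 fell at 4 hr with a median log2 fold change of 0.60, and 2 rose and 1 fell at 8 hr. *Il27*, which encodes the p28 subunit of IL-27, rose by 6.98 at 4 hr and 4.88 at 8 hr, from 5 to 9 reads in each library at 0 hr to 720 to 848 at 4 hr and 149 to 232 at 8 hr. It reached 1 CPM only in libraries with LPS, so the filter admitted it through groups where it was high. *Ebi3*, which encodes its partner subunit, rose by 1.21 and 1.40. Of the receptors, *Il11ra1* fell by 0.48 at 4 hr (adjusted p = 0.00301). The partner chains of gp130 are named here after their values were seen. *Lifr*, which encodes the LIF receptor, rose by 0.51 at 4 hr (adjusted p = 0.0321) and fell by 0.69 from 4 to 8 hr (adjusted p = 0.0174), which left -0.18 at 8 hr against 0 hr (adjusted p = 0.457), with between 11 and 34 reads in every library. *Osmr*, the partner chain for oncostatin M, was not tested and had between 2 and 14 reads in every library.

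Of the other ligands and receptors of the IL-10 family, 3 of 9 were tested, and 3 rose at 4 hr and 2 at 8 hr. *Il22* reached 1 CPM only in libraries with LPS and *Il19* only at 4 hr. The filter thus admitted both through groups where they were high, and their calls are no support for a rise of the list. Of the 3, only *Il20rb* was above 1 CPM at 0 hr. *Il22*, the gene of a cytokine that acts on epithelia, had 0 reads in all 4 libraries at 0 hr, 6 to 20 reads at 4 hr and 5 to 13 at 8 hr. *Il19* had 0 or 1 read at 0 hr, 5 to 14 at 4 hr and 0 to 4 at 8 hr. The third gene was the receptor chain *Il20rb*, which rose by 3.28 at 4 hr and 2.94 at 8 hr. *Il22* and *Il19* are given as reads, with no fold change, since their levels at 0 hr lie under the floor.

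Among the 9 kinases and transcription factors of the receptors, 5 rose and 1 fell at 4 hr and 6 rose and 1 fell at 8 hr, with medians of 0.58 and 0.38. *Jak2*, a Janus kinase of gp130, rose by 3.17 at 4 hr (adjusted p = 2.086e-10) and 2.63 at 8 hr. *Gab1*, an adaptor bound by gp130, fell by 0.73 at 4 hr. *Stat3*, the main transcription factor of both receptors, named here after its values were seen, had a log2 CPM of 6.86 to 7.21 at 0 hr and 6.90 to 7.28 at 4 hr and was not called (adjusted p = 0.960). Under quantile normalization *Stat3* and *Stat5b* were called lower at 4 hr, which makes 5 higher and 3 lower, and *Tyk2* and *Stat3* were not called at 8 hr, with 1 change of sign.

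The feedback inhibitors were mostly higher. Of 8, 6 rose and 1 fell at 4 hr and 5 rose at 8 hr, with medians of 0.97 and 0.82. *Socs1* rose by 4.69 at 4 hr and 4.59 at 8 hr, and *Cish* by 3.44 and 2.02. Both encode suppressors of cytokine signaling that act on Janus kinases or receptors. No library at 0 hr reached 1 CPM for *Cish*, so the filter admitted it through libraries with LPS. *Socs3*, which binds gp130 directly and is named here after its values were seen, rose by 3.17 and 2.82, from 152 to 385 reads in each library at 0 hr to 1369 to 2322 at 4 hr. *Pias3*, an inhibitor of STAT3, fell by 0.49 at 4 hr.

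Of 8 genes of the macrophage response to IL-10, 4 rose and 1 fell at 4 hr and 5 rose at 8 hr, with medians of 0.50 and 0.34. *Il1rn*, the gene of the IL-1 receptor antagonist, rose by 1.79 at 4 hr, and *Bcl3*, a nuclear inhibitor of NF-kappaB, by 0.87 at 4 hr and 1.34 at 8 hr. *Nfil3*, a transcriptional repressor, fell by 0.51 at 4 hr. Of the 4 genes of receptor shedding, 3 rose and 1 fell at both times: *Rhbdf2* and *Rhbdf1*, partners that carry the protease ADAM17 to the surface, rose by 1.80 and 1.58 at 4 hr, and *Adam17*, the protease itself, by 0.81. *Adam10*, another protease that can cut the IL-6 receptor, fell by 0.44.

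Of 10 RNA-binding regulators of cytokine mRNA, 6 rose and 2 fell at 4 hr and 5 rose and 3 fell at 8 hr. *Zc3h12c*, a relative of Regnase-1, rose by 3.14 at 4 hr, and *Zc3h12a* itself by 2.80 at 4 hr and 1.78 at 8 hr. *Zfp36l1* and *Zfp36l2*, which encode proteins that bind AU-rich elements and promote mRNA decay, fell by 2.09 and 0.98 at 4 hr. *Zfp36*, which encodes tristetraprolin of the same family and is named here after its values were seen, rose by 0.83 at 4 hr (adjusted p = 4.806e-05) and was higher by 0.38 at 8 hr (adjusted p = 0.0105). Of 9 transcription factors that act on *Il6* or *Il10*, 8 rose and none fell at 4 hr, 7 rose and 1 fell at 8 hr, and 6 fell between 4 and 8 hr, where 25.6% of all genes passed. *Nfkbiz* (IκBζ), needed for *Il6* transcription in macrophages, rose by 4.34 at 4 hr and 2.65 at 8 hr, and *Nfkb1*, a subunit of NF-kappaB, by 2.77 and 1.59.

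**Figure D4:**
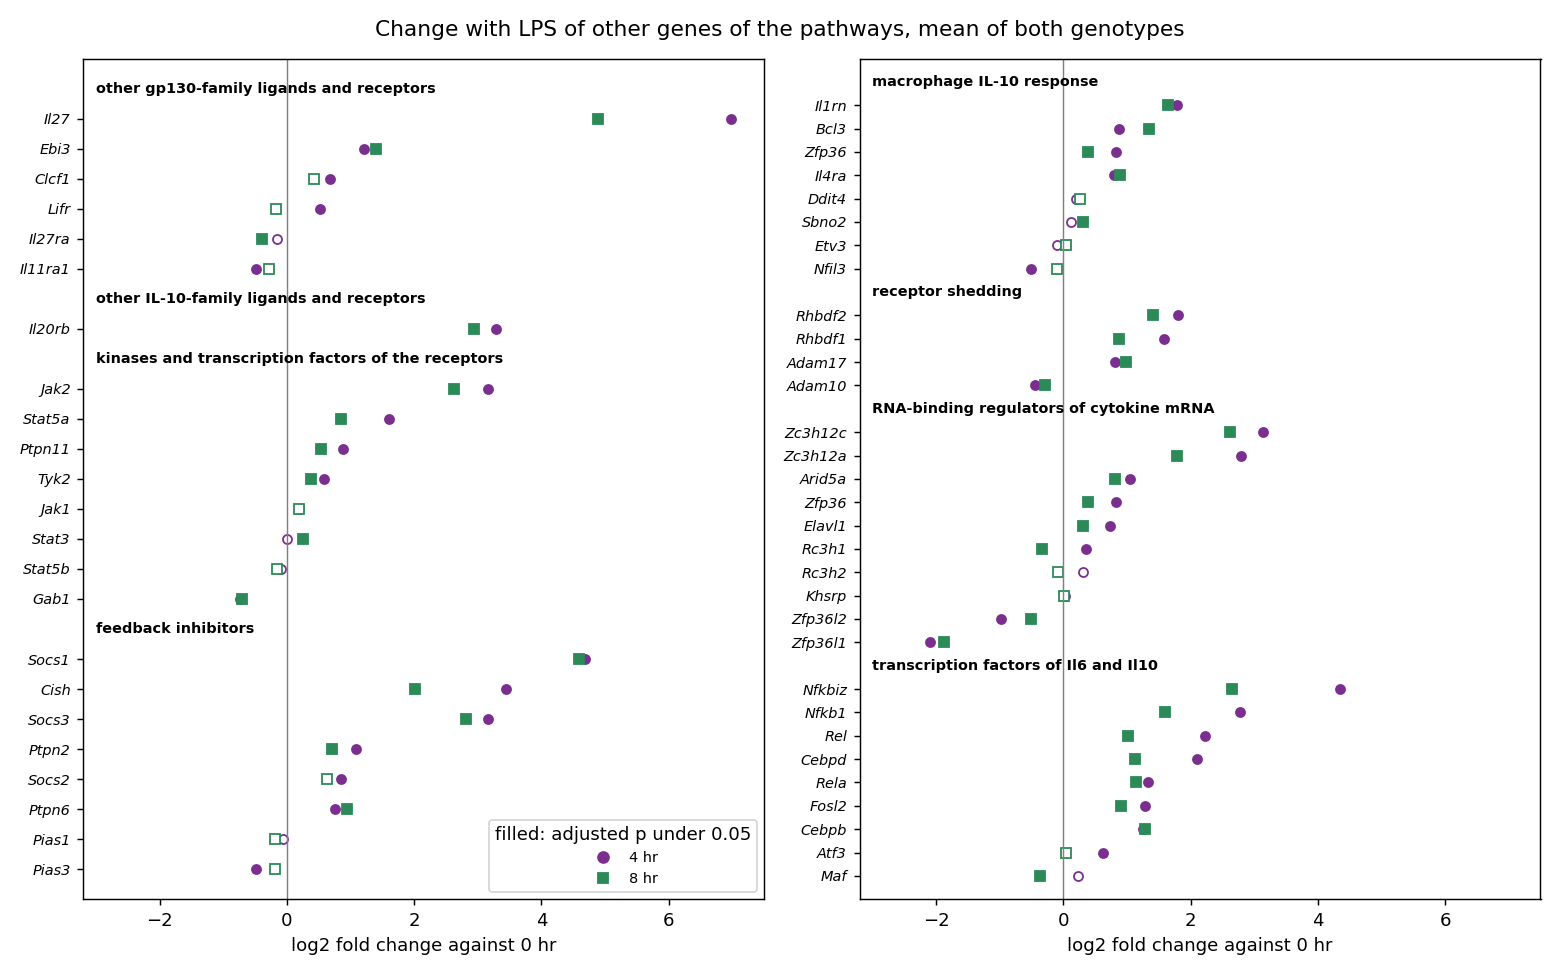
The horizontal axis is the log2 fold change against 0 hr averaged over both genotypes for tested genes of the 8 lists, with circles for 4 hr, squares for 8 hr and filled symbols for an adjusted p under 0.05. *Il22* and *Il19*, under the floor at 0 hr, are left out, and *Il27* at 4 hr lies farthest to the right, at 6.98.

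The second question was whether the S513A allele, which changes Regnase-1, altered these mRNAs. None of the 7 genes passed the test between S513A and WT PECs at any time or averaged over the times in limma with Benjamini-Hochberg adjustment, and the smallest adjusted p was 0.395. Over all genes, 0.0337% passed at 0 hr, 0.0168% at 4 hr, 0.0337% at 8 hr and 0.0673% averaged over the times. Without adjustment, 1 of the 7 genes had a p under 0.05 at 0 hr, 0 at 4 hr, 1 at 8 hr and 2 averaged over the times. Of the 11885 genes tested, 949 had such a p at 0 hr, 833 at 4 hr, 1487 at 8 hr and 798 averaged over the times. With voom weights on the recovered reads none of the 7 genes passed either.

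The gene at 0 hr was *Lif*, with an S513A minus WT difference of -0.99 on the log2 scale (95% confidence interval -1.80 to -0.18, adjusted p = 0.586) that rests on 6 WT reads against 2. At 4 hr the difference in *Lif* was 0.019 (-0.79 to 0.83) and at 8 hr -0.59 (-1.40 to 0.22). The gene at 8 hr was *Osm*, with 1.75 and 2.09 in WT and 2.28 and 2.78 in S513A PECs. Its difference in limma was 0.61 (0.065 to 1.16, adjusted p = 0.395), with no overlap between the genotypes. The genotypes did not overlap at 8 hr for *Il6ra*, *Il6st* and *Lif* either. This was not particular to 8 hr: they also did not overlap at 0 hr for *Lif*, *Il6st* and *Il10rb* and at 4 hr for *Osm* and *Il10rb*. How many of all genes did so was not counted, so no result is read from it. For *Osm* the differences at 0 and 4 hr were 0.20 and 0.24, with intervals that include 0.

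For *Il6* the S513A minus WT difference was 0.20 at 0 hr (95% confidence interval -1.15 to 1.54, adjusted p = 0.906), 0.36 at 4 hr (-0.99 to 1.70, adjusted p = 0.805) and -0.00097 at 8 hr (-1.35 to 1.34, adjusted p = 0.999). These intervals are wide, and a difference of 1 on the log2 scale lies inside each of them. Its sign at each time rests on single libraries: leaving out WT replicate 2 turned the value at 0 hr to -0.98 (1.38 when replicate 1 was left out), leaving out S513A replicate 2 turned the value at 4 hr to -0.014, and leaving out S513A replicate 1 turned that at 8 hr to 0.47. The 4 receptor genes were estimated more closely: their differences ran from -0.25 (*Il6st* at 4 hr) to 0.21 (*Il6ra* at 8 hr) over the 3 times, and the interval bound farthest from 0 was -0.58 (*Il6st* at 4 hr). Beside these values, the resident macrophage marker *Timd4* lay at 23.9 to 26.6 CPM in WT and 12.3 to 19.6 CPM in S513A PECs at 4 hr and at 32.8 to 38.7 and 18.8 to 19.9 CPM at 8 hr, while the ranges of *Gata6* overlapped at both times, and the neutrophil gene *S100a8* lay at 20.2 to 35.1 CPM in WT and 51.1 to 54.1 CPM in S513A PECs at 0 hr. Their part in the differences was not tested.

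The interaction terms, which compare the change with LPS between the genotypes, gave no call for any of the 7 genes, nor for any of the genes tested (0% for 4 hr against 0 hr, 0% for 8 hr against 4 hr and 0% for 8 hr against 0 hr). The smallest adjusted p among the 7 genes was 0.9999, 0.280 and 0.301, and none of the 7 had an unadjusted p under 0.05. Over all genes 144, 2243 and 2405 had one, and voom weights gave 0 calls in each of the 3 terms. None of the tested genes in the 8 lists passed between the genotypes at any time.

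**Figure D5:**
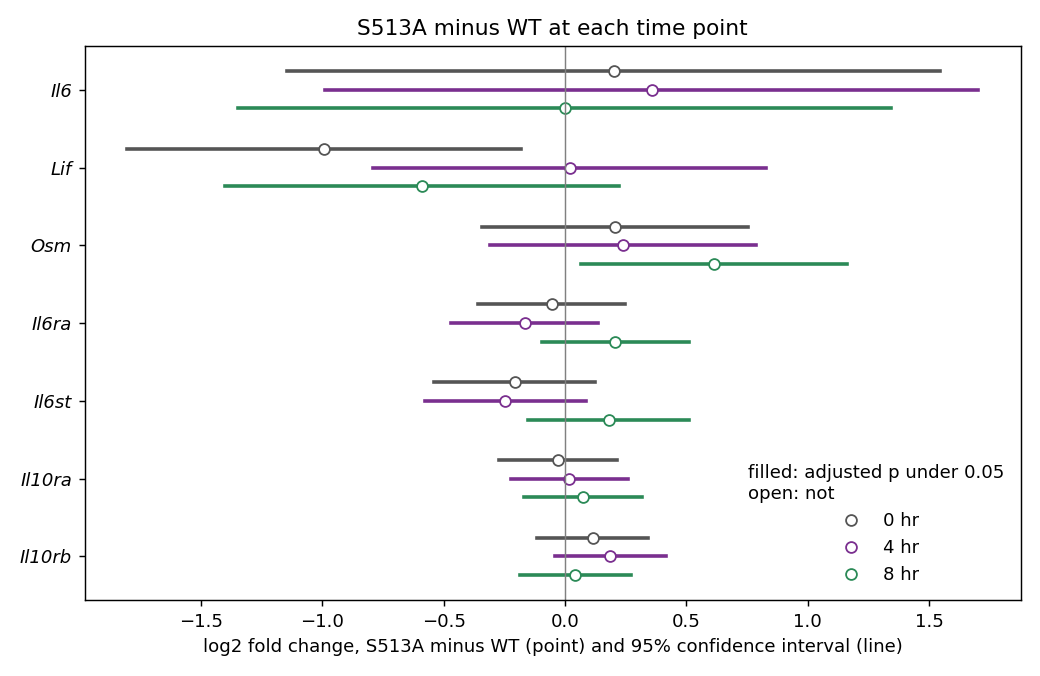
The horizontal axis is the log2 fold change of S513A over WT PECs at 0, 4 and 8 hr of LPS, with points for the estimates and lines for 95% confidence intervals, and all points are open because no adjusted p was under 0.05. The intervals of *Il6* are the widest, and only those of *Lif* at 0 hr and *Osm* at 8 hr exclude 0 before adjustment.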

How the data were processed

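The authors mapped paired-end reads as unstranded with HISAT2 on mm10 and counted them with featureCounts 1.6.3. The authors deposited 1 table of log2 CPM values, each the log2 of the reads plus 0.5 after division by an effective library size. The program, annotation and filter behind it were not given in the sources used here. Whole reads were recovered from the steps between low values (largest departure 0.00103 read).

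Groups follow the labels. The log2 values were fitted as deposited in limma 3.58.1 (R 4.3.3), with a mean for each of 6 groups, 6 residual degrees of freedom, a trended prior, and two-sided p values with Benjamini-Hochberg adjustment (threshold 0.05). Tests covered 11885 genes that reached 1 CPM in 2 libraries or more. The script was tested on simulated data. The 7 members, the 3 genes most alike each ligand gene, and the called genes with the largest changes at 4 hr in each list (up to 2 each way) are named. Members and lists were chosen with earlier results of these data known. Alternatives were other filters, a further pseudocount of 1 CPM, median-ratio scaling, quantile normalization, other priors, smaller models, a replicate block, each library left out and, chosen after seeing the data, voom weights. Gene positions are from GRCm38 annotation (RefSeq and GENCODE M21). Same-numbered libraries deviated together in some pairs of groups and oppositely in others, with correlations from -0.749 to 0.760 over all pairs of groups. Within WT PECs the correlations ran from -0.358 to 0.155. Within S513A PECs they were -0.029 for 0 and 4 hr, -0.12 for 0 and 8 hr and 0.760 for 4 and 8 hr. The labels do not say whether the numbers mark pairs, so they entered only the replicate block, and a pairing of the S513A libraries at 4 and 8 hr remains possible. Tables and plots used Python 3.11.15, pandas 2.3.3 and matplotlib 3.10.9. Intervals and floors on reads cover counting error only. A gene that the naming rule picks from the lists is not reported here by name.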

Additional observations from a re-analysis of the deposited data

Results flagged for a closer look

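*Il6st*, the gene of gp130, is listed because its difference between S513A and WT cells had opposite signs at 0 and 8 hr: both S513A libraries lay below both WT libraries at 0 hr (-0.21 on the log2 scale) and above both at 8 hr (0.18), so the difference between the 2 times was 0.39. The interaction test of that difference did not pass (adjusted p = 0.301 in limma). At 8 hr *Osm* and *Il6ra* also lay higher, and *Lif* lower, in both S513A libraries than in both WT libraries. Such separation also occurred at 0 hr for *Lif* and *Il10rb* and at 4 hr for *Osm* and *Il10rb*. How many of all genes change sides between 2 times in this way was not counted.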

How the results depend on the processing

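Of 352 recomputed counts of genes called, 347 stayed within 1.5 times the reported count. The other 5 each left out 1 library: over the 12 such fits the WT count at 8 hr against 0 hr ran from 3 to 5, the WT count at 8 against 4 hr from 1 to 5, and the S513A count at 8 against 4 hr from 2 to 5. With the replicate block the counts averaged over the genotypes were 6 at 4 hr, 5 at 8 hr and 5 between 4 and 8 hr, and the block changed no other count. A filter on a mean of 5 CPM left out *Lif*, which was then not tested. Of 1704 fold changes recomputed for single genes, 1628 kept their direction and side of the threshold, 40 lost a call, 11 gained one and 25 changed sign. Leaving out 1 library in turn, *Il10rb* ran from -0.085 to 0.0025 at 8 against 0 hr and from -0.039 to 0.049 at 8 against 4 hr, and *Il6st* in WT cells from -0.22 to 0.14 at 8 against 4 hr (0.0034 with quantile normalization). Between the genotypes at 0 hr, *Il6* ran from -0.98 to 1.38, *Osm* from -0.029 to 0.44, *Il6ra* from -0.11 to 0.0013 and *Il10ra* from -0.073 to 0.018, *Il6* was -0.035 with a further pseudocount and *Il10rb* -0.019 with quantile normalization. At 4 hr *Il6* ran from -0.014 to 0.73, *Lif* from -0.12 to 0.16 and *Il10ra* from -0.093 to 0.13. At 8 hr *Il6* ran from -0.48 to 0.47 and *Il10rb* from -0.045 to 0.13, and *Il6* was 0.0026 with a further pseudocount, 0.0054 with median-ratio scaling and 0.040 with quantile normalization. The cause of these changes was not tested.

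Depth limits *Il6* and *Lif* at 0 hr and *Lif* at 8 hr, where a library held between 1 and 10 reads, so their ratios against 0 hr have wide counting intervals. With 2 libraries per group, a call within a single genotype often rested on 1 library. The WT call of *Il10ra* at 8 against 0 hr was also lost with quantile normalization (0.17, adjusted p = 0.249), median-ratio scaling and a prior without a trend, and its S513A call at 8 against 4 hr with quantile normalization, that prior and a model of only the libraries compared. That smaller model also lost the WT call of *Il10ra* at 8 against 4 hr and the S513A call of *Lif* at 8 against 0 hr (2.22, adjusted p = 0.0667).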
